A study of Rattus norvegicus with 325 samples.

Results

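The gastrocnemius and the tibialis anterior of young adult rats were compared at 6 months of age. The comparison took every library whose label names the gastrocnemius (10 libraries) or the tibialis anterior (12 libraries) at 6 months, 22 of 325 libraries in all. The series follows muscle ageing in male Sprague Dawley rats, an outbred strain, with bulk RNA sequencing of 4 muscles from 6 to 27 months, and the labels name no genotype, drug or diet that would set these 2 groups apart. Total RNA of muscle tissue was sequenced, so vessels, nerve, connective tissue and blood cells are in every library. Within a muscle each library came from a different animal, but the labels do not say which gastrocnemius and which tibialis anterior came from the same rat. The study's methods give 1 day of collection for the tissues of an age, so day of collection did not separate the groups. The labels, however, give the gastrocnemius libraries a sample-number series of their own, while the tibialis anterior, soleus and diaphragm libraries share another. A difference between the 2 muscles and a difference between the 2 sample-number series therefore cannot be told apart at any gene.

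Both muscles are built mainly of fast fibres. The gastrocnemius lies at the back of the lower leg and pulls the heel up, and in the rat it holds a deep part that is rich in slow and oxidative fibres. The tibialis anterior lies at the front and lifts the foot. Fibre types are told apart by which member of each sarcomere gene family they use, with Myh7 as the slow myosin heavy chain and Myh2, Myh1 and Myh4 as the fast ones, in the order from more oxidative to more glycolytic. Limb position is laid down in the embryo by transcription factors, among them the Hox genes, whose 4 clusters are used in nested patterns along the body and limb, and adult tissues often keep part of that pattern.

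The libraries held 26.1 to 85.3 M counts in the gastrocnemius (median 35.5, M for 1e6) and 28.1 to 66.1 M in the tibialis anterior (median 38.0). The defining genes of skeletal muscle were abundant in all of them. The first principal component of the log2 CPM values (counts after scaling each library to 1e6) held 67.5% of the variance and separated the muscles without overlap. On the second component, with 12.3%, gastrocnemius replicates 4 and 9 stood apart from the other gastrocnemius libraries, at 27.4 and 16.5 against -18.7 to 0, and results that rest on them are given below with and without them. The gastrocnemius libraries varied more among themselves. The median SD of a gene was 0.174 log2 CPM in the gastrocnemius and 0.097 in the tibialis anterior, and 84.5% of 8284 genes had the larger SD in the gastrocnemius.

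Of 11213 genes tested, 1230 (11%) were higher and 845 (7.54%) were lower in the gastrocnemius, at a Benjamini-Hochberg adjusted p under 0.05 and a difference over 1.5-fold by limma-voom. "Higher", "lower" and "called" refer to these thresholds throughout, and every difference is the gastrocnemius minus the tibialis anterior on the log2 scale with its SE. Past 4-fold the counts were 62 higher and 8 lower. The lower calls leaned on the 2 libraries that stood apart. Without gastrocnemius replicates 4 and 9 the counts were 1256 higher and 448 lower. Median SDs, in log2 CPM, were taken with all libraries for genes with a mean above 2 log2 CPM. They were 0.469 in the gastrocnemius and 0.081 in the tibialis anterior for 674 lower genes. They were 0.205 and 0.178 for 572 higher genes, and 0.162 and 0.095 for 7038 uncalled genes.

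**Figure D1:**
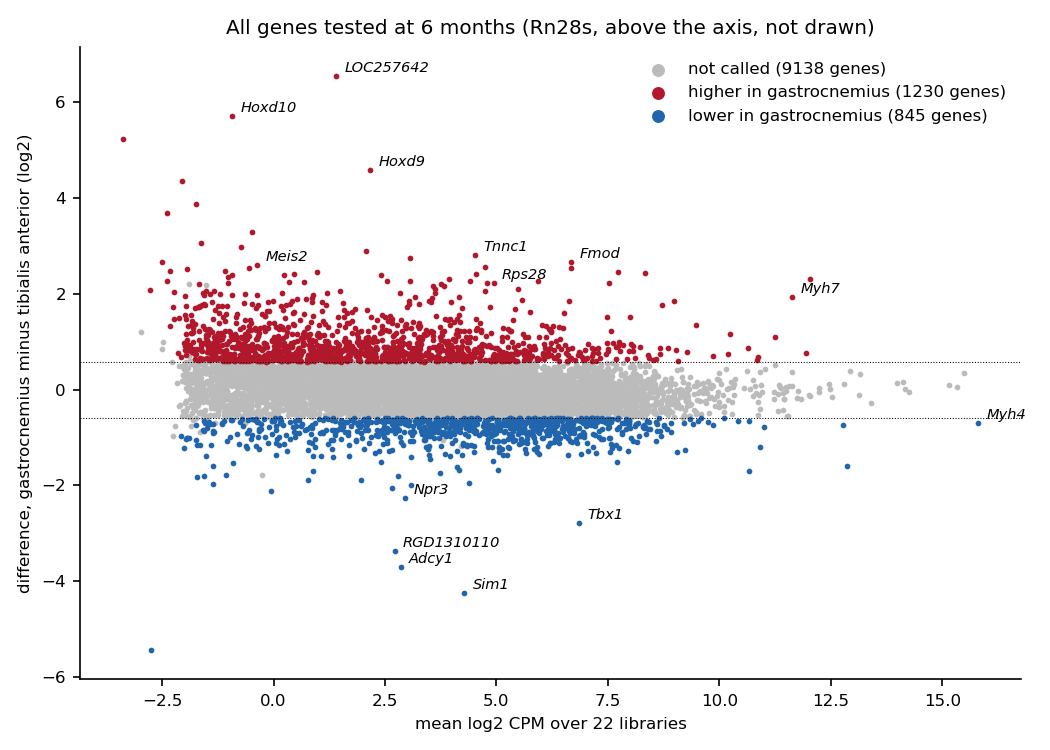
Difference between gastrocnemius and tibialis anterior (log2, vertical axis) against the mean log2 CPM over 22 libraries (horizontal axis), 1 point per gene tested, with the 1230 higher genes in red, the 845 lower genes in blue and dotted lines at 1.5-fold. Rn28s lies above the axis and is not drawn. LOC257642, Hoxd10 and Hoxd9 are labelled near the top and Sim1, Adcy1, RGD1310110 and Tbx1 near the bottom, and Myh4, at the right edge, lies just past the lower line.

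The regulatory sequence just before the start of 4 genes is shown because these genes carry the patterns below, namely a neighbouring pair of the HoxD cluster, a slow fibre gene and a fast fibre gene. The sequences are from RefSeq on build GRCr8, plus strand, 5′ to 3′, and run over the 250 bases before the annotated start. Capitals mark the E-box, CANNTG, which reads the same on both strands and is the motif bound by myogenic and other basic helix-loop-helix factors.
Hoxd9, chr3:80007756-80008005: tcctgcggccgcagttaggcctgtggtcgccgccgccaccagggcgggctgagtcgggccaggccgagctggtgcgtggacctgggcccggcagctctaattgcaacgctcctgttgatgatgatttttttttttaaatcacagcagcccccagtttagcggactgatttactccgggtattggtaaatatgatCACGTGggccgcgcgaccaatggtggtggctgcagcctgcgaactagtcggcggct
Hoxd10, chr3:80001697-80001946: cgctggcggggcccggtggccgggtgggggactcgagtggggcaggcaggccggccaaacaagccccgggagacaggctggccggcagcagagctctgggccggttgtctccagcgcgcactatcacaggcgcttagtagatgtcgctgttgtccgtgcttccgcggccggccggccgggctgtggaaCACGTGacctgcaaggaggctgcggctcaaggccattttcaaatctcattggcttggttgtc
Tnnt1, chr1:78348785-78349034: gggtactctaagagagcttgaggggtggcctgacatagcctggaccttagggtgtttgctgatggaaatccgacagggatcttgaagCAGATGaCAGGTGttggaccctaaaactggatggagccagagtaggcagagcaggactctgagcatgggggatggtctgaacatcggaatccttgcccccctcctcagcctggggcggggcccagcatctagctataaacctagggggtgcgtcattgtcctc
Myh4, chr10:52421898-52422147: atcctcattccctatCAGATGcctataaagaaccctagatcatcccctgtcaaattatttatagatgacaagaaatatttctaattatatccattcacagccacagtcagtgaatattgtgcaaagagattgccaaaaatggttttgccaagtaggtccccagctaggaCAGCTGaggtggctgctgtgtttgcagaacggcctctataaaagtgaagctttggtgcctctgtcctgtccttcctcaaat
Hoxd9 and Hoxd10 each held 1 E-box, of the form CACGTG, at positions -56 and -62 from the start, and Tnnt1 and Myh4 held 2 each. Of 33469 windows of this length in the same table, 65.5% held an E-box and 5.59% held CACGTG. Among genes with a window, an E-box was found in 61.2% of 885 called higher, 54.8% of 642 called lower and 56.1% of 8546 tested. These shares describe letters in a window only.

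The largest differences among the position genes lay in the HoxD cluster. Hoxd9, a homeodomain factor of the limb, ranged from 4.64 to 5.31 log2 CPM in the gastrocnemius (median 4.91) and from -0.38 to 0.91 in the tibialis anterior (median 0.25). Hoxd9 was among the genes chosen for groups that did not overlap, so the absence of overlap is not a further result. The difference was 4.58 ± 0.12 (adjusted p 7.2e-19), which is 24.0-fold, and it had the smallest p of all genes tested. Its neighbour Hoxd10 ranged from 2.04 to 2.93 log2 CPM in the gastrocnemius. In the tibialis anterior it had 0 to 21 counts per library, with 2 of 12 libraries at 0, against 121 to 305 in the gastrocnemius. The fitted difference of Hoxd10 was 5.71 ± 0.42 (adjusted p 5.4e-11), a value that depends on the prior count of 0.5 for the libraries at 0. Hoxd4, from the other end of the cluster, differed by 1.67 ± 0.12 (adjusted p 7.1e-11).

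The soleus and diaphragm of the same age, set on the same scale, show where these 2 muscles fall among 4. Hoxd9 was at 2.11 to 3.34 log2 CPM in the soleus, below every gastrocnemius library and above every tibialis anterior library. In the diaphragm Hoxd9 was at -1.42 to 0.82, which overlaps the tibialis anterior. Hoxd10 in the soleus, at -0.71 to 1.60, lay below every gastrocnemius library but overlapped the tibialis anterior, at -6.15 to -0.67. The diaphragm was at -6.15 to -1.29, and -6.15 is the value of a library with no count.

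Differences in the other Hox clusters were smaller. Of 16 Hox genes tested, 5 were higher and 1 was lower in the gastrocnemius, with a median difference of 0.31 against 0.01 over all genes tested. Besides the 3 HoxD genes, Hoxc11 (0.74 ± 0.06) and Hoxc5 (0.62 ± 0.10) were higher, and Hoxb4 was lower (-0.84 ± 0.16, adjusted p 1.1e-04). Hoxc10, a hind limb gene, was at 6.02 to 6.50 log2 CPM in the gastrocnemius and at 6.03 to 6.27 in the tibialis anterior, and did not pass the test (0.03 ± 0.04, adjusted p 0.48). Hoxc10 was near these levels in the soleus, at 5.82 to 6.09, and had no count in most diaphragm libraries. Hoxa11, which patterns the middle segment of the limb, had a difference of -0.55 ± 0.11 (adjusted p 1.6e-04), short of 1.5-fold at 6 months. Hoxa11 is listed on more than 1 line of the files, so its reads may be shared with a near-identical copy.

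**Figure D2:**
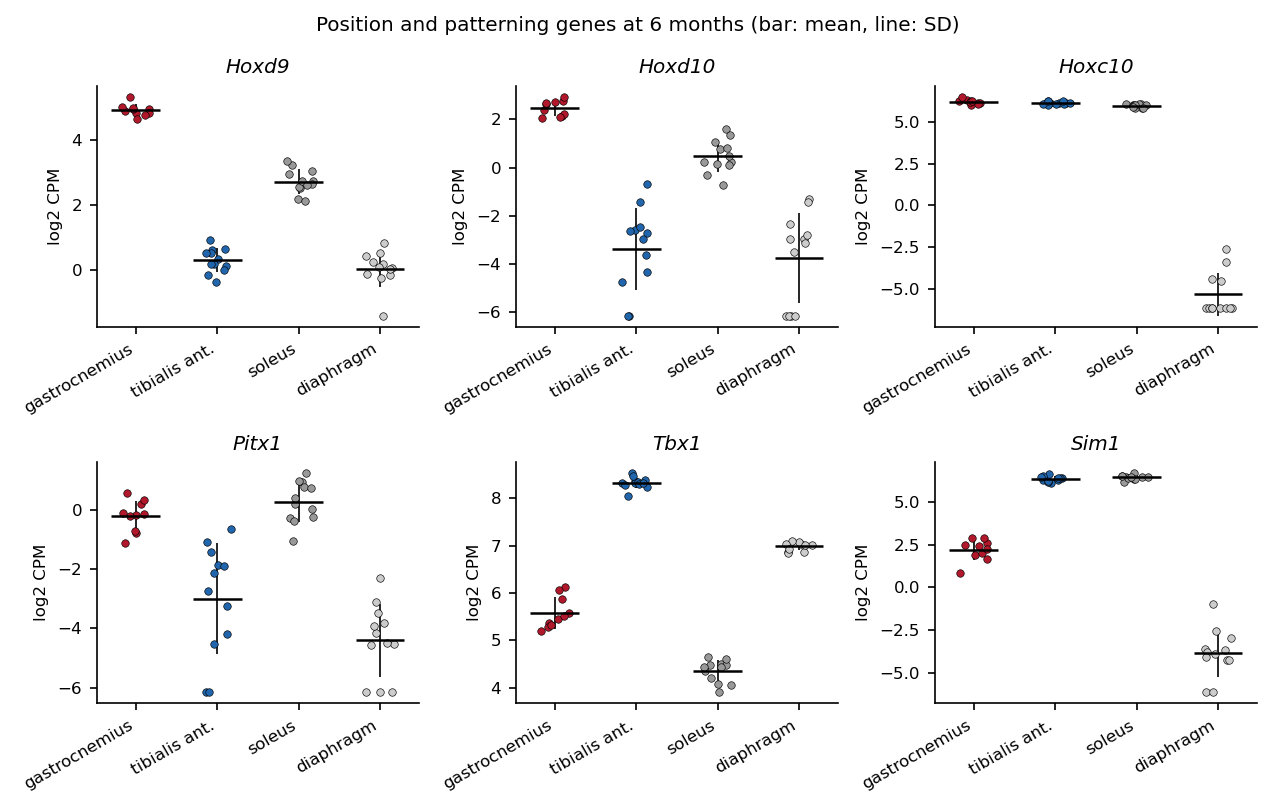
Levels of 6 position and patterning genes in each library of the 4 muscles at 6 months (log2 CPM on a common scale, 1 point per library, bar for the mean and vertical line for the SD). Hoxd9, Hoxd10 and Pitx1 are higher in gastrocnemius than in tibialis anterior, Tbx1 and Sim1 are lower, and Hoxc10 is alike in the 3 limb muscles.

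Among other limb patterning factors, 7 of 33 tested (21.2%) were higher in the gastrocnemius and 2 (6.06%) were lower, and the median difference was 0.01. Over all genes tested the shares were 11% and 7.54%. Six2, a homeodomain factor of tendon and muscle connective tissue, was at 3.65 to 4.38 log2 CPM in the gastrocnemius and 0.92 to 2.33 in the tibialis anterior. Its groups did not overlap and the difference was 2.39 ± 0.12 (adjusted p 1.3e-13), while in the soleus and diaphragm it was lower than in either. Meis2, a cofactor of Hox proteins that was singled out after its values were seen, differed by 2.61 ± 0.17 (adjusted p 3.7e-12).

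Pitx1 and Tbx4, the factors that give the hind limb its identity, had low counts. Pitx1 had 15 to 61 counts in a gastrocnemius library and 0 to 36 in a tibialis anterior library. The groups overlapped, and the fitted difference was 2.52 ± 0.45 (adjusted p 3.8e-05), which depends on the prior count since 2 tibialis anterior libraries were at 0. Tbx4 had 16 to 45 and 1 to 59 counts, with a difference of 1.11 ± 0.32 (adjusted p 0.0036). Alx4 (1.05 ± 0.22), Prrx2 (0.90 ± 0.23) and Tbx2 (0.65 ± 0.14) were the other higher members. Tbx5, of the fore limb, and Lmx1b, of the back of the limb, had at most 9 and 15 counts in any of the 22 libraries and did not pass the filter on low counts.

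In the opposite direction stood Sim1 and Tbx1. Sim1, a basic helix-loop-helix factor of the muscle precursors of the limb, was at 0.85 to 2.90 log2 CPM in the gastrocnemius and at 6.17 to 6.65 in the tibialis anterior. The difference was -4.25 ± 0.15 (adjusted p 2.5e-16), 19.1-fold, the largest fall among genes with a mean above 1 log2 CPM whose groups did not overlap. The soleus, at 6.22 to 6.70, overlapped the tibialis anterior, and the diaphragm was at -6.15 to -0.97. Every gastrocnemius library held less Sim1 than any library of the other hind limb muscles.

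Tbx1, a T-box factor needed for head and branchial muscle, was at 5.20 to 6.13 log2 CPM in the gastrocnemius and at 8.04 to 8.52 in the tibialis anterior. It differed by -2.78 ± 0.09 (adjusted p 3.3e-17), 6.88-fold. The order of the 4 muscles was tibialis anterior, diaphragm (6.85 to 7.10), gastrocnemius and soleus (3.91 to 4.65), with no overlap between neighbours. Tbx3, a T-box factor of limb patterning, was lower by a smaller amount (-0.72 ± 0.12), with overlapping groups.

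Other genes led the fall without being on a list. Adcy1, a calcium-stimulated adenylyl cyclase, was at 0.46 to 1.86 log2 CPM in the gastrocnemius and 4.39 to 5.18 in the tibialis anterior (-3.70 ± 0.16, adjusted p 5.3e-15). RGD1310110, named Armh4 in current RefSeq, was at 0.78 to 1.57 and 3.90 to 4.93 (-3.37 ± 0.16, adjusted p 3.3e-14). The tibialis anterior was the highest of the 4 muscles for both genes. Npr3, the clearance receptor of natriuretic peptides, differed by -2.26 ± 0.12, and the soleus, at 3.47 to 4.57, overlapped the tibialis anterior there. Raver2, an RNA-binding protein gene, differed by -2.06 ± 0.08, Kcnab1, a potassium channel subunit gene, by -1.98 ± 0.17, and Lpcat4, a phospholipid acyltransferase gene, by -1.89 ± 0.10. All of these genes were chosen among those whose groups did not overlap, so the absence of overlap is not a further result. The same holds for Sim1, Tbx1, Tnnc1, Fmod, Chad, Ndufa10l1, Rn28s and LOC257642. Over all genes tested, 10.7% had no overlap in this direction and 9.48% in the other.

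Most slow fibre genes were higher in the gastrocnemius. Of 27 tested, 19 were higher, 2 were lower and 6 did not pass, with a median difference of 1.17 against 0.01 over all genes tested. Tnnc1, the slow and cardiac troponin C, was at 5.78 to 6.92 log2 CPM in the gastrocnemius and at 2.92 to 4.04 in the tibialis anterior. That is a difference of 2.80 ± 0.15 (adjusted p 2.9e-13), 6.98-fold. Myl2, the slow regulatory light chain, was at 7.71 to 8.72 and 5.02 to 6.13 (2.53 ± 0.13, adjusted p 5.6e-14). In the gastrocnemius Myl2 reached the range of the soleus, 8.36 to 8.98, and that of the diaphragm, 7.75 to 8.37. Tnnt1, the slow troponin T whose promoter is printed above, differed by 2.46 ± 0.14, and Tnni1, the slow troponin I, by 2.27 ± 0.14. Both were singled out after their values were seen.

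Myh7, the slow myosin heavy chain, was at 12.52 to 13.46 log2 CPM in the gastrocnemius and at 10.41 to 11.64 in the tibialis anterior. It differed by 1.93 ± 0.14 (adjusted p 2.9e-11), 3.81-fold, without overlap, and remained below the diaphragm (13.72 to 14.25) and the soleus (15.32 to 15.66). The slow calcium handling genes went the same way, with Atp2a2, the slow calcium pump, at 1.17 ± 0.12 and Casq2, the cardiac and slow calsequestrin, at 1.09 ± 0.14. Prox1, a homeodomain factor of slow fibres, differed by 1.17 ± 0.10 (adjusted p 6.8e-10). Among the 29 fibre type regulators tested, 2 (6.9%) were higher and 1 (3.45%) lower, against 11% and 7.54% over all genes tested. Their median was 0.05. The other higher regulator was Nfatc4, a calcineurin-dependent factor (0.78 ± 0.09), and the lower one was Mef2a. The slow list held exceptions. Mybpc1, slow myosin binding protein C, was lower (-0.74 ± 0.07), as was Pln, phospholamban, the brake of the slow calcium pump (-0.79 ± 0.11). The soleus was not the low muscle for these, with Pln at 3.32 to 3.96 log2 CPM there, against 1.82 to 2.89 in the gastrocnemius and 2.95 to 3.48 in the tibialis anterior.

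The fast fibre list held fewer calls. Of 19 tested, 3 (15.8%) were higher, 1 (5.26%) was lower and 15 did not pass, with a median of 0.10. Over all genes tested the shares were 11% and 7.54%. Myh4, the most glycolytic fast myosin, was the lower member, at 15.38 to 16.02 log2 CPM in the gastrocnemius and 16.14 to 16.51 in the tibialis anterior. Its difference was -0.70 ± 0.07 (adjusted p 1.1e-08), 1.63-fold, with no overlap. Myh1 (0.10 ± 0.06, adjusted p 0.16) and Myh2 (0.02 ± 0.09, adjusted p 0.86) did not pass, and their ranges overlapped, Myh1 at 15.22 to 15.63 and 14.99 to 15.48 and Myh2 at 12.51 to 13.15 and 12.26 to 12.95. Tnnc2, fast troponin C (0.88 ± 0.07), Tnni2, fast troponin I (0.63 ± 0.06), and Myoz1, a Z-disc protein gene (0.68 ± 0.06), were higher. In bulk RNA, fewer fibres of a type and less RNA per fibre cannot be told apart.

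**Figure D3:**
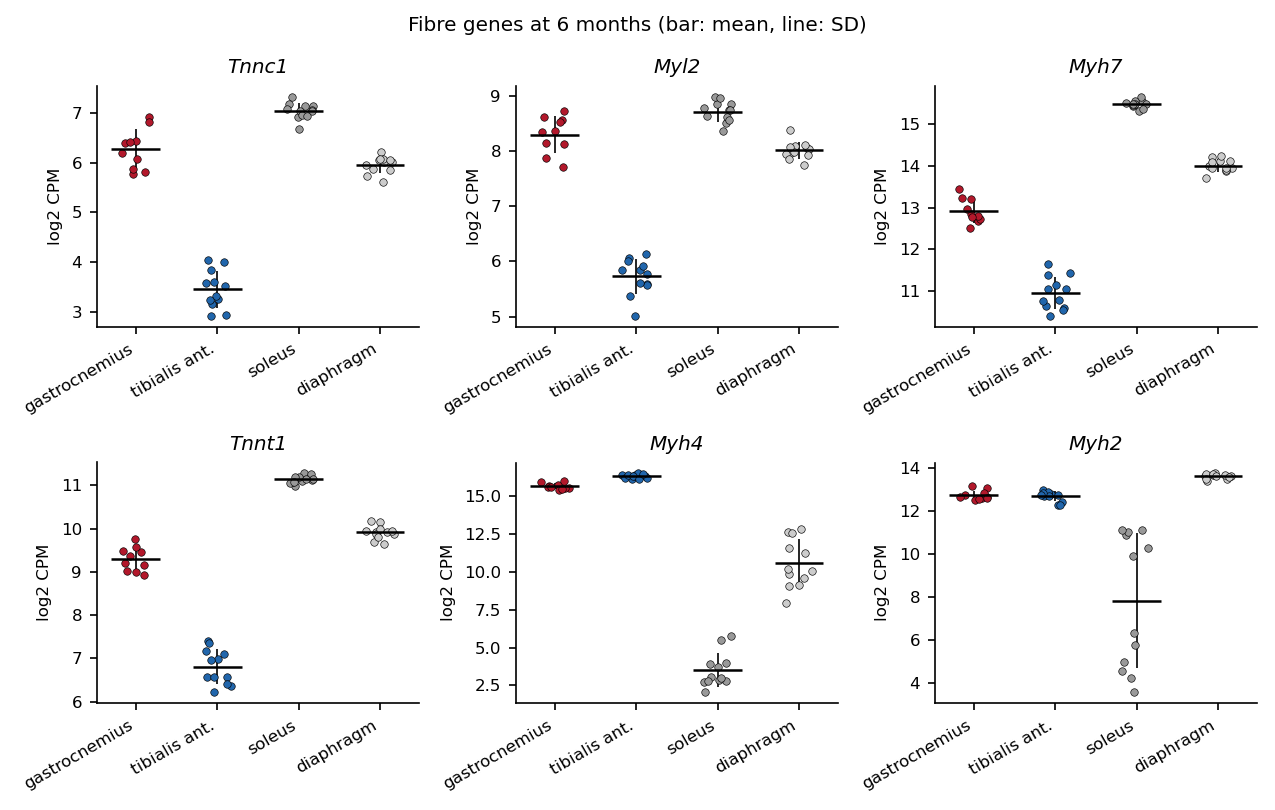
Levels of 4 slow fibre genes (Tnnc1, Myl2, Myh7, Tnnt1) and of Myh4 and Myh2 in each library at 6 months (log2 CPM on a common scale, 1 point per library, bar for the mean and vertical line for the SD). The slow genes lie higher in gastrocnemius than in tibialis anterior without overlap, Myh4 lies lower, and Myh2 overlaps.

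The lists of glycolysis, the citric acid cycle and fatty acid oxidation held 0 to 2 calls each. Their shares of higher genes were 3.33%, 0% and 6.9%, against 11% over all genes tested. Of 30 glycolytic enzyme genes 1 was higher, Ldhb, the heart-type lactate dehydrogenase subunit (1.33 ± 0.12, adjusted p 8.1e-10). It was at 6.69 to 7.73 log2 CPM in the gastrocnemius and 5.38 to 6.10 in the tibialis anterior. Of 21 citric acid cycle genes 0 were called by limma-voom or by edgeR, while 11 had an unadjusted and an adjusted p under 0.05, 10 of them with a value below 0 and 1 above, with differences short of 1.5-fold. Of 29 genes of fatty acid uptake and oxidation 2 were higher, Fabp3, the heart-type fatty acid carrier (0.98 ± 0.08), and Etfb, an electron transfer subunit (0.75 ± 0.08). Glycogen genes split. Ugp2, which makes the sugar donor for glycogen (-1.31 ± 0.14), Ppp1r3a, the muscle glycogen-targeting subunit of protein phosphatase (-1.20 ± 0.19), and Epm2a were lower, while Ppp1r3d (0.86 ± 0.07) and Nhlrc1 (0.70 ± 0.20) were higher, of 18 tested. Without gastrocnemius replicates 4 and 9 the lower members were 2.

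Of 71 nuclear genes of the respiratory chain tested, 27 (38%) were higher, 1 was lower and 43 were not called, against 11% higher over all genes tested, and the median was 0.36, short of 1.5-fold. The leading members were Ndufs6, of complex I, at 2.46 ± 0.32 and Atp5i, of the ATP synthase, at 1.87 ± 0.10, with Atp5i at 6.62 to 7.03 log2 CPM in the gastrocnemius and 4.18 to 5.42 in the tibialis anterior. Ndufa10l1, a complex I gene copy outside the list, differed by 2.74 ± 0.19. Cycs, cytochrome c, was the lower member (-0.60 ± 0.12) and did not pass without gastrocnemius replicates 4 and 9 (-0.41). Of 79 cytosolic ribosomal protein genes tested, 37 (46.8%) were higher, 0 were lower and 42 were not called, with a median of 0.54. Rps28 was at 5.81 to 6.93 log2 CPM in the gastrocnemius and 3.75 to 4.59 in the tibialis anterior (2.22 ± 0.11, adjusted p 4.5e-14). Rpl37a differed by 2.17 ± 0.29, with overlapping groups.

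These 2 lists did not follow the slow and fast order of the muscles. The mean log2 CPM of the ribosomal protein list was 7.01 to 7.38 in gastrocnemius libraries, against 6.48 to 6.68 in the tibialis anterior, 6.50 to 6.66 in the soleus and 6.17 to 6.31 in the diaphragm. The respiratory chain list was at 7.64 to 7.86 in the gastrocnemius, against 7.11 to 7.40, 6.73 to 6.88 and 6.90 to 7.26. The gastrocnemius, alone in its sample-number series, was above every library of the other 3 muscles in both lists.

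Ribosomal and small non-coding RNA, which a protein-coding comparison would leave aside, moved with the same libraries. Ribosomal RNA genes took 0.437% to 5.31% of the counts in gastrocnemius libraries (2.18% ± 1.46, SD, n = 10) and 0.217% to 0.405% in tibialis anterior libraries (0.312% ± 0.053, SD, n = 12), with no overlap (two-sided permutation test, p 2e-05, the smallest these permutations can give, adjusted p 4e-05 over 4 classes). Rn28s, a ribosomal RNA gene, had 5849 to 3690990 counts in a gastrocnemius library and was listed at 0 in all 12 tibialis anterior and all 12 diaphragm libraries, and in 8 of 12 soleus libraries. Against the floor of 3 counts in the smallest tibialis anterior library, the lowest gastrocnemius library was at least 1470-fold higher. LOC257642, which is listed on more than 1 line, so that its reads may be shared, was at 2.35 to 6.96 log2 CPM in the gastrocnemius and at most -0.14 in any library of the tibialis anterior (6.55 ± 1.12, adjusted p 2.1e-05). Rn45s, the ribosomal RNA precursor, was higher by a smaller amount (0.77 ± 0.15) with overlapping groups. The small non-coding RNA genes took 0.0824% ± 0.0130 (SD, n = 10) and 0.0154% ± 0.0045 (SD, n = 12) of the counts (permutation test, adjusted p 4e-05). Of their genes only Rmrp, the RNA of RNase MRP, passed the filter, at 9.56 to 10.48 and 6.70 to 8.17 log2 CPM (2.44 ± 0.13, adjusted p 2.4e-13). Rmrp alone was at a median of 931 CPM in the gastrocnemius and 163 CPM in the tibialis anterior, most of the class. Of 459 small RNA genes, 430 had no count in any gastrocnemius library and 452 none in any tibialis anterior library. The class share and the Rmrp difference are therefore not separate results. The part of these RNA classes in the ribosomal protein and respiratory chain differences was not tested. The histone genes, which code for proteins, took slightly more of the counts in the gastrocnemius, a mean of 0.0157% against 0.015% in the tibialis anterior. The ranges of these shares overlapped, and the means differed (permutation test, adjusted p 0.0368). With the ribosomal RNA genes removed the means were 0.016% and 0.015% (permutation test, adjusted p 0.0099). Of 14 histone genes tested 7 were higher and 1 was lower, with Hist2h4 at 1.23 ± 0.08 and Hist1h2bh at -0.68 ± 0.05. Leaving the ribosomal, small and histone RNA genes out before scaling gave 1212 higher and 852 lower genes.

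Genes of tendon and connective tissue formed the other large block. Of 28 matrix and tendon genes tested, 20 were higher in the gastrocnemius and 0 lower, with a median of 0.93. Fmod, fibromodulin, a collagen-binding proteoglycan of tendon, was at 8.14 to 8.62 log2 CPM in the gastrocnemius and at 4.57 to 6.36 in the tibialis anterior. The difference was 2.66 ± 0.15 (adjusted p 4.5e-13), 6.33-fold. Chad, chondroadherin, a cartilage and tendon protein, was at 5.71 to 7.01 and 2.21 to 4.89 (2.55 ± 0.22, adjusted p 9.9e-10). Of 6 tenocyte markers 5 were higher, led by Fmod and Kera, keratocan (2.40 ± 0.21), while Scx, the transcription factor of tendon cells, did not reach 1.5-fold (0.50 ± 0.10, adjusted p 1.4e-04).

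Of 23 collagen genes 8 (34.8%) were higher and 1 (4.35%) was lower, against 11% and 7.54% over all genes tested. Col11a2, a fibril collagen of cartilage, differed by 2.27 ± 0.16 (adjusted p 2.8e-11), and Col1a1, the main tendon collagen, was at 9.86 to 10.93 log2 CPM in the gastrocnemius and 7.48 to 8.79 in the tibialis anterior (1.85 ± 0.15, adjusted p 1.9e-10). Col7a1, the anchoring fibril collagen, was the lower member (-0.84 ± 0.13). The soleus was close to the gastrocnemius in this block, with Fmod at 6.71 to 8.30 and Chad at 5.28 to 7.89 there. For the matrix and tendon list the median of the library means was 5.83 log2 CPM in the gastrocnemius and 4.77 in the tibialis anterior. It was 6.62 in the soleus and 5.82 in the diaphragm, so the tibialis anterior was the low muscle of the 4.

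**Figure D4:**
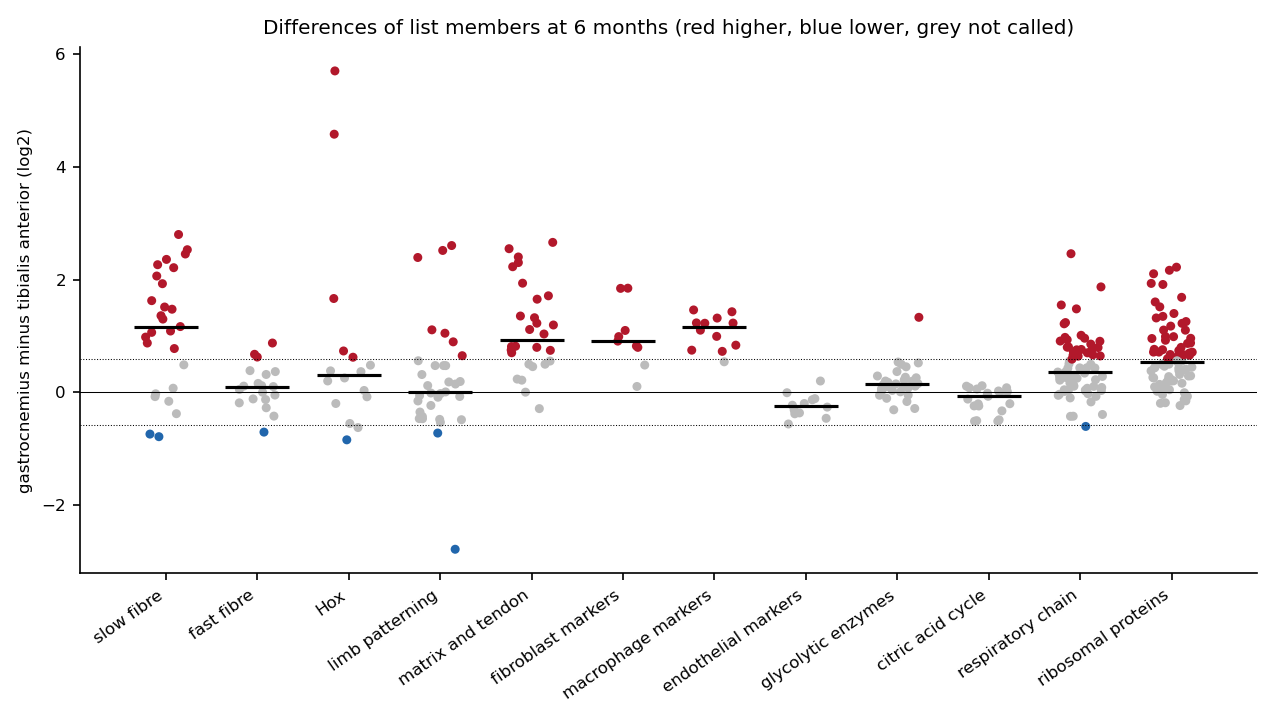
Difference of each tested member of 12 gene lists at 6 months (gastrocnemius minus tibialis anterior, log2), with higher members in red, lower in blue, uncalled in grey, the median as a black bar and dotted lines at 1.5-fold. The medians lie at 1.17 for slow fibre genes, 0.93 for matrix and tendon genes and 1.17 for macrophage markers, and near 0 for the fast fibre, glycolytic, citric acid cycle and limb patterning lists.

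Markers of other cell types moved with this block in part. Fibroblast and interstitial progenitor markers were higher in 7 of 9, with Pi16, of a stem-like fibroblast state, at 3.80 to 4.77 and 1.76 to 2.77 log2 CPM (1.85 ± 0.13, adjusted p 1.3e-11), and the summed level of the list was 2609 to 4002 CPM in the gastrocnemius and 1053 to 1900 in the tibialis anterior. The fibroblast sum was 2251 to 4822 CPM in the soleus and 2473 to 3419 in the diaphragm. Macrophage markers were higher in 11 of 12, with a median of 1.17. Their summed level was 130 to 219 CPM in the gastrocnemius and 56.7 to 89.6 in the tibialis anterior. In the soleus it was 203 to 337 CPM and in the diaphragm 171 to 301. For both lists the tibialis anterior lay below every library of the other muscles. C1qa, a complement gene of resident macrophages, was at 3.23 to 4.18 and 1.68 to 2.62 log2 CPM (1.46 ± 0.11, adjusted p 1.6e-10), and C1qb differed by 1.43 ± 0.13. Cd4, which rat macrophages also carry, differed by 1.02 ± 0.09, while the T cell genes Cd3d, Cd3e and Cd3g and the B cell genes Cd79b and Ms4a1 did not pass the filter. Of the genes of antigen presentation and interferon response, 5 of 15 were higher, led by RT1-Ba (1.15 ± 0.20) and RT1-Db1 (1.05 ± 0.13) of MHC class II, and 2 were lower, Ifit2 (-0.79 ± 0.22) and Rsad2 (-0.63 ± 0.18), of which Ifit2 did not pass without gastrocnemius replicates 4 and 9 (-0.48).

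Other cell type lists held 0 to 2 higher genes each. Of 12 endothelial markers 0 were called by limma-voom or edgeR, although 9 had an unadjusted p under 0.05 and 7 an adjusted p under 0.05, all 7 with a value below 0, and the median was -0.24. Their summed level was 604 to 706 CPM in the gastrocnemius and 745 to 870 in the tibialis anterior. Smooth muscle and pericyte markers held 0 higher and 2 lower of 10, Cnn1, calponin (-0.93 ± 0.22), and Myh11, smooth muscle myosin (-0.64 ± 0.14), and without gastrocnemius replicates 4 and 9 Myh11 did not pass (-0.51). Adipocyte markers were higher in 2 of 9, with Cfd, adipsin, at 1.23 ± 0.21 and overlapping groups, and Schwann cell markers in 2 of 9, among them S100b (0.66 ± 0.14). Of 5 red cell genes tested 0 were higher and 1 was lower, the haemoglobin gene Hbb (-0.82 ± 0.09). Hba1, the other haemoglobin chain, had a difference of 0.57 ± 0.10 (adjusted p 3.3e-05), short of 1.5-fold at 6 months, and was called higher at 9 months. Of the 9 skin and epithelial markers 8 did not pass the filter, and Krt14 was at 0 in all 22 libraries. No other marker list had a gene at 0 in every library of a group, except Krt5, a skin marker at 0 in all tibialis anterior libraries. The part of these cell types in the matrix result was not tested.

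The lists of nerve contact and muscle stem cells had shares of higher genes from near the 11% over all genes tested to 20%. Of 23 neuromuscular junction genes 3 (13%) were higher and 0 lower, Col13a1 (0.81 ± 0.12) and Colq (0.63 ± 0.14), both collagen-like proteins of the synapse, and Chrnd, a receptor subunit (0.61 ± 0.08). Of 20 myogenic and satellite cell genes 4 (20%) were higher, Myog, the differentiation factor (1.11 ± 0.09, adjusted p 1.1e-10), Cdkn1a (1.10 ± 0.21), Hey1 (0.95 ± 0.13) and Fst, follistatin (0.85 ± 0.12). Of 4 neuron and axon markers that passed the filter Gap43, a growth cone protein gene, was higher (1.80 ± 0.17), while Stmn2 (-0.38 ± 0.14, adjusted p 0.019), Uchl1 (-0.18 ± 0.19) and Prph (-0.06 ± 0.15) were not called. Of 51 axon guidance genes 6 (11.8%) were higher, led by Sema3b (1.23 ± 0.11) and Sema7a (0.85 ± 0.08), and 2 were lower, among them Epha3, a receptor of axon pathfinding (-1.80 ± 0.29) whose tibialis anterior level was low, at -1.16 to 0.24 log2 CPM. The other, Sema3c, did not pass without gastrocnemius replicates 4 and 9 (-0.43).

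The lists of immediate early, stress and clock genes were also examined. Of 24 immediate early genes 8 (33.3%) were higher and 0 lower, against 11% higher over all genes tested, with a median of 0.50. Nr4a2, an orphan nuclear receptor, was at 1.15 to 5.65 log2 CPM in the gastrocnemius and 0.18 to 4.01 in the tibialis anterior (1.35 ± 0.48, adjusted p 0.016), a wide overlap, and Ier3 differed by 1.28 ± 0.19. Heat shock and stress genes were higher in 8 of 25 (32%) and lower in 1 (4%). The higher ones were led by Cryab, the small chaperone of the Z-disc, at 10.11 to 10.71 and 8.93 to 9.24 log2 CPM (1.34 ± 0.06, adjusted p 5.0e-15), and Hspa1a (1.09 ± 0.13). The lower member, Hsp90aa1 (-0.63 ± 0.17), did not pass without gastrocnemius replicates 4 and 9 (-0.35), and it is listed on more than 1 line. Of 15 clock genes 3 were called, near the 18.5% of all genes called in either direction. Dbp, an output of the clock, was higher (1.25 ± 0.29). Of its positive arm Arntl (-0.65 ± 0.13) and Clock (-0.69 ± 0.10) were lower, and Npas2 was not called (-0.14 ± 0.14). Without the 2 libraries Clock did not pass (-0.50). Cish, a growth hormone target, ranged from 1.57 to 7.08 in the gastrocnemius and 2.63 to 6.87 in the tibialis anterior and did not differ beyond its spread (-0.09 ± 0.58, adjusted p 0.90).

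For some of the lower genes described here the difference was smaller without gastrocnemius replicates 4 and 9. Trdn, triadin, which anchors calsequestrin at the calcium release site, was at 8.47 to 11.16 log2 CPM in the gastrocnemius and at 11.53 to 11.77 in the tibialis anterior. Replicates 4 and 9 had the lowest values, 8.47 and 8.69. The difference was -1.69 ± 0.25 (adjusted p 3.7e-06) and was -1.318 without them. Jph1, junctophilin, which holds the membrane junction together, was lower at -0.82 ± 0.09, and Ppp1r3a, described above, went from -1.20 to -0.90 without them. Mef2a, a muscle transcription factor, went from -0.69 to -0.52 and no longer passed. Without them Sim1 was at -4.004, Tbx1 at -2.868 and Adcy1 at -3.756, all still called. Of 32 calcium handling genes 4 (12.5%) were higher, led by Sln, sarcolipin, an inhibitor of the calcium pump (2.36 ± 0.37). A further 5 (15.6%) were lower, which became 3 without the 2 libraries. Over all genes tested the shares were 11% higher and 7.54% lower.

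The 9-month groups, 12 libraries of each muscle from other animals, repeat the comparison in the same 2 sample-number series. Of 11226 genes tested, 1210 (10.8%) were higher and 771 (6.87%) lower. Of the genes called at 6 months, 2058 were tested again, 2056 of them had the same sign and 1659 (80.6%) were called in the same direction, 982 of 1218 higher and 677 of 840 lower. Hoxd9 differed by 4.22, Hoxd10 by 5.23, Sim1 by -4.13, Tbx1 by -2.73, Tnnc1 by 2.87, Fmod by 2.13 and Adcy1 by -4.44. When the change of the muscle difference from 6 to 9 months was tested itself over 11480 genes, 0 genes (0%) were called by limma-voom and 471 had an unadjusted p under 0.05. For Adcy1 this change was -0.74 ± 0.26 and for Hoxd9 -0.37 ± 0.16, both with an adjusted p of 0.999.

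At the later ages some position genes were called each time and others were not. Hoxd9 was called at each of the 7 ages with 4.22 to 4.58, Tbx1 with -3.09 to -2.69 and Sim1 with -4.25 to -2.63, its smallest difference being at 27 months. Hoxd10, Hoxd4, Hoxb4 and Six2 were also called at each age. Tbx4 and Tbx2 were called at 6 months alone, with 0.15 and 0.18 at 27 months, and Tbx3 was not called at 9, 12 and 21 months. Pitx1 passed the filter on low counts at 6, 9 and 27 months, with 2.52, 1.57 and 1.28, and was called at these ages. Tnnc1 was also called at each age, with 2.38 to 3.38. Of 11038 genes tested at every age, 486 were higher and 41 lower in the gastrocnemius at all 7. The share of 6-month calls found again fell further for lower genes than for higher ones, with 51.9% of 1211 higher genes and 9.2% of 835 lower genes called at 27 months, and 16 genes called the other way. In between the lower share did not fall steadily, at 17.7% at 18 months and 66.6% at 21 months. Trdn, one of the lower genes with a wide spread, had a difference of -0.01 at 27 months. Myh4 was not called at 18 (-0.58) and 27 months (-0.46). At 12 months the tibialis anterior libraries carry sample numbers of a further series. Differences at the later ages were fitted separately, and the change between 6 months and those ages was not tested here.

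**Figure D5:**
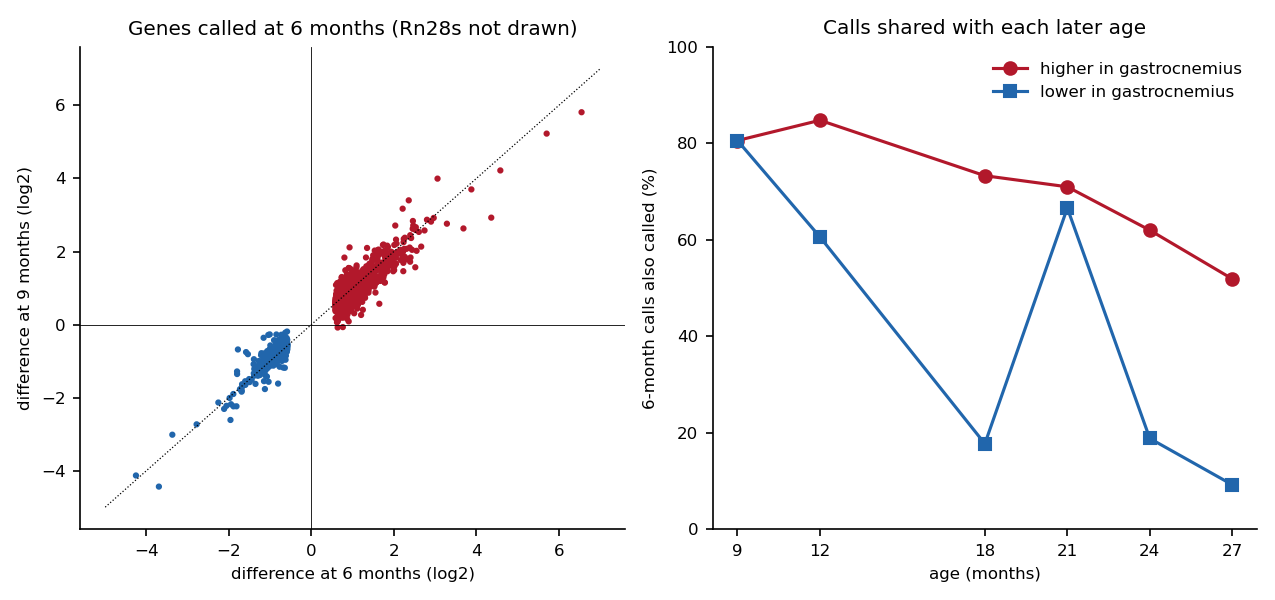
Left, the muscle difference at 9 months against that at 6 months (log2) for genes called at 6 months, with the line of equal values dotted and Rn28s not drawn. The points lie in 2 opposite quadrants apart from 2 genes. Right, the percent of 6-month calls also called in the same direction at each later age in months, 80.6% of the higher and of the lower genes at 9 months, and 51.9% and 9.2% at 27 months.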

How the data were processed

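The authors deposited raw counts per gene for each library, with no normalization. Strand-specific, paired-end libraries were made after depletion of ribosomal RNA from tissue in RNAlater. The authors ran ArrayStudio (version not given in the sources used here), with an earlier rat build and an in-house RefSeq gene model, so no coordinates of it are used. Each file held 17870 lines and 17315 symbols, and lines of 1 symbol were summed (494 symbols, 2.24% of counts in the 22 libraries). No mitochondrially encoded gene was matched. No 2 of the 22 libraries were identical. Of the 325 libraries, 182 were read and the others were not used here.

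Genes passed filterByExpr by group (minimum count 10), were scaled by TMM (edgeR 4.0.16) and fitted with limma-voom (limma 3.58.1, R 4.3.3) on the 2 groups of 1 age, two-sided, with Benjamini-Hochberg adjustment over all genes tested. Calls need an adjusted p under 0.05 and over 1.5-fold. The change from 6 to 9 months was an interaction contrast over the 4 groups. Levels are log2 CPM with a prior count of 0.5, on 1 TMM scale over the 46 libraries of 6 months. On simulated counts for 11213 genes at 6 months, 56.7% of genes changed 1.5-fold and 98.5% of those changed 2-fold were called. A change of 1.5-fold lies on the threshold itself. The simulation gave both muscles the same spread, while the gastrocnemius libraries varied more, so these rates may not hold for the real libraries. Shares were compared with two-sided permutation tests (100000 resamples, scipy 1.17.1).

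Named genes are the 8 largest non-overlapping differences each way above 1 log2 CPM, the 2 largest called genes each way of each list above 0 log2 CPM, and 12 fixed genes. Tnnt1, Tnni1, Tnni2, Meis2, Gap43, Stmn2, Uchl1, Prph, Hba1, Npas2, Sln, Alx4, Prrx2, Hoxc11, Hoxc5, Scx, Epm2a, Chrnd, Hey1, Fst and Epha3 were named after their values were seen. The members and lists were chosen with earlier results of these data known. Alternatives were edgeR, DESeq2 1.42.0, other scalings, filters and thresholds, sample weights, a replicate block and single libraries left out.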

Additional observations from a re-analysis of the deposited data

Results flagged for a closer look

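In 7 of 136 values examined over the 10 gastrocnemius libraries, 1 library lay far from the others (Dixon's test at the 95% level, which chance passes for about 1 in 20 groups). Replicate 0 had the highest mean of the immediate early genes, 5.72 log2 CPM against a median of 4.10. Replicate 3 had the lowest Cish, 1.57 against a median of 5.71. Replicate 4 had the highest Hoxd9, 5.31 against 4.91, and the lowest Kcnab1, 0.76 against 2.46. Replicate 5 had the lowest Rn28s, 7.46 against 13.86, which still lay above every tibialis anterior library. Replicate 7 had the highest mean of the Schwann cell markers, 3.24 against 2.47, and of the skin and epithelial markers, 0.73 against -0.17, the latter from the only tested member of that list. The tibialis anterior group of 12 was not examined in this way. Without replicate 3 the difference of Cish was 0.348 in place of -0.09, and neither value passed the test.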

How the results depend on the processing

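The 2075 genes called at 6 months became 1309 with Bonferroni adjustment (457 lower) and 612 at a 2-fold threshold (427 higher, 185 lower). The 845 lower genes became 498 with sample quality weights and, in an alternative chosen after seeing the data, 448 without gastrocnemius replicates 4 and 9, which moved the share of higher calls from 59.3% to 73.7%. At 9 months a 2-fold threshold gave 588 genes against 1981. Other fits at 6 months gave 1609 (minimum count 50) to 2472 genes (no filter), no gene was called in opposite directions by any fit, and another scaling moved the median difference by at most 0.02. Leaving out 1 library gave 1851 to 2200 genes. Whether equal replicate numbers mark the same rat remained unknown. Of 10 same-numbered pairs 1 correlated above 0.1, and 1 of 10 libraries matched its own number best. A low correlation between different muscles cannot exclude that they came from 1 rat. The replicate block gave 1990 genes at 6 months. It gave 0 genes for the change from 6 to 9 months. The share of the 10 most abundant genes turned from 0.175 to -0.0513 percentage points after removal of ribosomal RNA (adjusted p 0.94). Uncalled values near 0 turned sign. Cish was 0.151 by edgeR and 0.154 by DESeq2 and ran from -0.345 to 0.348, and Myh2 from -0.029 to 0.048, with 1 library left out, and with total-count scaling Hoxc10 at 12 months was 0.049 and Hsp90aa1 at 27 months was -0.003. The causes were not tested. Depth limits Pitx1, Tbx4, Hoxd10, Tbx5 and Lmx1b.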
